A study of Mus musculus with 9 samples.

Results

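Tubulin genes and the microtubule-associated protein gene Map4 were followed across 9 mouse hearts, 3 in each of 3 groups. The 10 genes were chosen by symbol: the alpha-tubulin genes Tuba1a, Tuba1b and Tuba1c, the beta-tubulin genes Tubb2a, Tubb2b, Tubb3, Tubb4b, Tubb5 and Tubb6, and Map4. The platform annotation used here names a probe set for 8 of them, out of 20239 genes named, and Tuba1b and Tubb4b were not analysed here. All 8 passed the filter on low values and were among the 12597 genes tested.

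The hearts came from male C57BL/6 mice that received an adeno-associated virus at 8 weeks of age, with the cargo under an MLC promoter. Surgery came 4 weeks later, and whole hearts were frozen after another 4 weeks. The sham-luciferase group had AAV-Luc, which delivers luciferase as a control protein, and sham surgery. The TAC-luciferase group had AAV-Luc and transaortic constriction (TAC), which narrows the aorta so that the left ventricle pumps against a higher pressure. The TAC-HDAC4-NT group had TAC and a virus (labelled HDAC-NT) that delivers amino acids 1 to 201 of histone deacetylase 4. All 3 groups thus carried a virus, and no group combined sham surgery with the HDAC4 fragment.

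Microtubules are hollow polymers of alpha- and beta-tubulin dimers. Alpha- and beta-tubulins are each encoded by several genes whose proteins differ mostly in their carboxy-terminal tails, where enzymes add or remove tyrosine and glutamate. In cardiomyocytes microtubules carry cargo, shape the nucleus and resist shortening, and a denser, more detyrosinated and more Map4-decorated network is a known feature of hypertrophied and failing hearts. Map4 is the main microtubule-associated protein outside neurons and stabilises the polymer.

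One TAC-luciferase heart stood apart. Across the genes tested, heart 1 of that group had a Pearson r of 0.991 to 0.992 with the TAC-HDAC4-NT hearts and of only 0.986 and 0.987 with hearts 2 and 3 of its own group. Results of the TAC-luciferase group are therefore also given without it where they turn on it.

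Most of the measured tubulin genes and Map4 rose with TAC in the luciferase hearts and Tubb2a had the largest change. Tubb5 came next with all hearts (log2 fold change 0.73, against 0.67 for Tubb6), and Tubb6 came next without TAC-luciferase heart 1 (0.78, against 0.68 for Tubb5) or with array weights (0.73, against 0.69). Of the 8 genes measured, 6 were called higher against sham (Tuba1a, Tubb2a, Tubb2b, Tubb5, Tubb6 and Map4) and none was lower. A gene was called where its adjusted p in limma, by the Benjamini-Hochberg method over all genes tested, was under 0.05. Among all 12597 genes tested, 26.1% were called, 11.2% higher and 14.9% lower. Without TAC-luciferase heart 1 the count was also 6. The median log2 fold change was 0.60 over the 8 genes and -0.012 over all genes tested. For these 6 genes every TAC-luciferase heart lay above every sham heart, a pattern found in 15.9% of all genes tested, and in 37.4% the groups were apart in either direction.

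Of the alpha-tubulins, Tuba1a encodes a form abundant in developing tissue. Its log2 values were 8.04, 8.22 and 8.16 in the sham hearts, 8.79, 8.64 and 8.73 in the TAC-luciferase hearts and 8.53, 8.65 and 8.93 in the TAC-HDAC4-NT hearts. All 6 TAC hearts lay above the sham hearts, and the TAC groups overlapped. Tuba1a rose 1.5-fold in TAC-luciferase (log2 fold change 0.58, SE 0.10, adjusted p 0.00253 by limma) and 1.48-fold in TAC-HDAC4-NT (0.57, SE 0.10, adjusted p 0.0031 by limma). Tuba1c, a second alpha-tubulin gene on the same chromosome, stood at 6.84, 7.03 and 6.84 in sham, 7.09, 7.07 and 6.82 in TAC-luciferase and 7.07, 6.85 and 6.84 in TAC-HDAC4-NT. These groups overlapped throughout. The difference from sham was 0.09 log2 units in TAC-luciferase (95% confidence interval -0.12 to 0.30) and 0.018 in TAC-HDAC4-NT (-0.19 to 0.23), and neither passed the test.

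Among the beta-tubulins, Tubb2a had the largest change of the set. Its log2 values were 6.64, 6.68 and 6.93 in sham, 7.76, 7.58 and 7.66 in TAC-luciferase and 7.43, 7.46 and 7.53 in TAC-HDAC4-NT. The TAC-HDAC4-NT hearts lay between the other groups without touching either. Tubb2a rose 1.89-fold in TAC-luciferase (log2 fold change 0.92, SE 0.08, adjusted p 0.000107 by limma) and 1.65-fold in TAC-HDAC4-NT (0.72, SE 0.08, adjusted p 0.00037 by limma).

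Tubb5 encodes the beta-tubulin that most tissues express. It was measured at 9.69, 9.77 and 9.97 in sham, 10.65, 10.47 and 10.51 in TAC-luciferase and 10.52, 10.50 and 10.53 in TAC-HDAC4-NT. The TAC groups overlapped each other and lay clear of sham. The rise was 1.66-fold in TAC-luciferase (log2 fold change 0.73, SE 0.08, adjusted p 0.000206 by limma) and 1.64-fold in TAC-HDAC4-NT (0.71, SE 0.08, adjusted p 0.000263 by limma).

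Tubb2b, a close paralog of Tubb2a on the same chromosome, gave 5.77, 5.69 and 6.06 in sham, 6.35, 6.25 and 6.77 in TAC-luciferase and 6.39, 6.27 and 6.47 in TAC-HDAC4-NT. The sham values lie near the filter value of 5.66, where RMA compresses differences, and every TAC heart exceeded them. Tubb2b rose 1.53-fold in TAC-luciferase (log2 fold change 0.61, SE 0.14, adjusted p 0.011 by limma) and 1.45-fold in TAC-HDAC4-NT (0.54, SE 0.14, adjusted p 0.0217 by limma). The second call was lost when sham heart 1, sham heart 2, TAC-HDAC4-NT heart 1 or TAC-HDAC4-NT heart 3 was left out (highest adjusted p 0.0753 by limma), and with no filter on low values (0.0507).

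Tubb3, best known as the beta-tubulin of neurons, stood at 6.09, 6.22 and 5.94 in sham, 6.07, 6.05 and 6.21 in TAC-luciferase and 6.28, 6.21 and 6.25 in TAC-HDAC4-NT. All 3 groups overlapped. Its differences from sham were 0.027 log2 units (95% confidence interval -0.14 to 0.19) in TAC-luciferase and 0.16 (-0.0051 to 0.33) in TAC-HDAC4-NT, and neither passed.

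Tubb6, a divergent beta-tubulin that is raised in regenerating and dystrophic skeletal muscle, was called against sham in TAC-luciferase and not in TAC-HDAC4-NT. The difference between the TAC groups did not pass (adjusted p 0.11 by limma). Tubb6 was at 7.19, 7.20 and 7.54 in sham and at 7.76, 8.28 and 7.89 in TAC-luciferase. In TAC-HDAC4-NT it was at 7.40, 7.37 and 7.53. The TAC-luciferase hearts stood above both other groups, and the TAC-HDAC4-NT hearts lay within the range of sham. Tubb6 rose 1.59-fold in TAC-luciferase (log2 fold change 0.67, SE 0.14, adjusted p 0.00667 by limma). In TAC-HDAC4-NT the difference from sham was 0.12 (95% confidence interval -0.19 to 0.43, adjusted p 0.599 by limma).

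Map4 was measured at 10.91, 10.79 and 10.62 in sham, 11.03, 11.07 and 11.04 in TAC-luciferase and 11.10, 11.08 and 11.12 in TAC-HDAC4-NT. The TAC hearts spanned a narrow range above the more scattered sham hearts. Map4 rose 1.21-fold in TAC-luciferase (log2 fold change 0.27, SE 0.07, adjusted p 0.0153 by limma) and 1.26-fold in TAC-HDAC4-NT (0.33, SE 0.07, adjusted p 0.00706 by limma). Within the sham group, heart 3 had the highest Tubb2a, Tubb2b, Tubb5 and Tubb6 values and the lowest Map4 and Tubb3 values. Without sham heart 3 the Map4 change in TAC-luciferase was 0.20, with an adjusted p of 0.0300 (limma). The highest adjusted p of that change with any array left out was 0.0499, without TAC-luciferase heart 2.

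**Figure D1:**
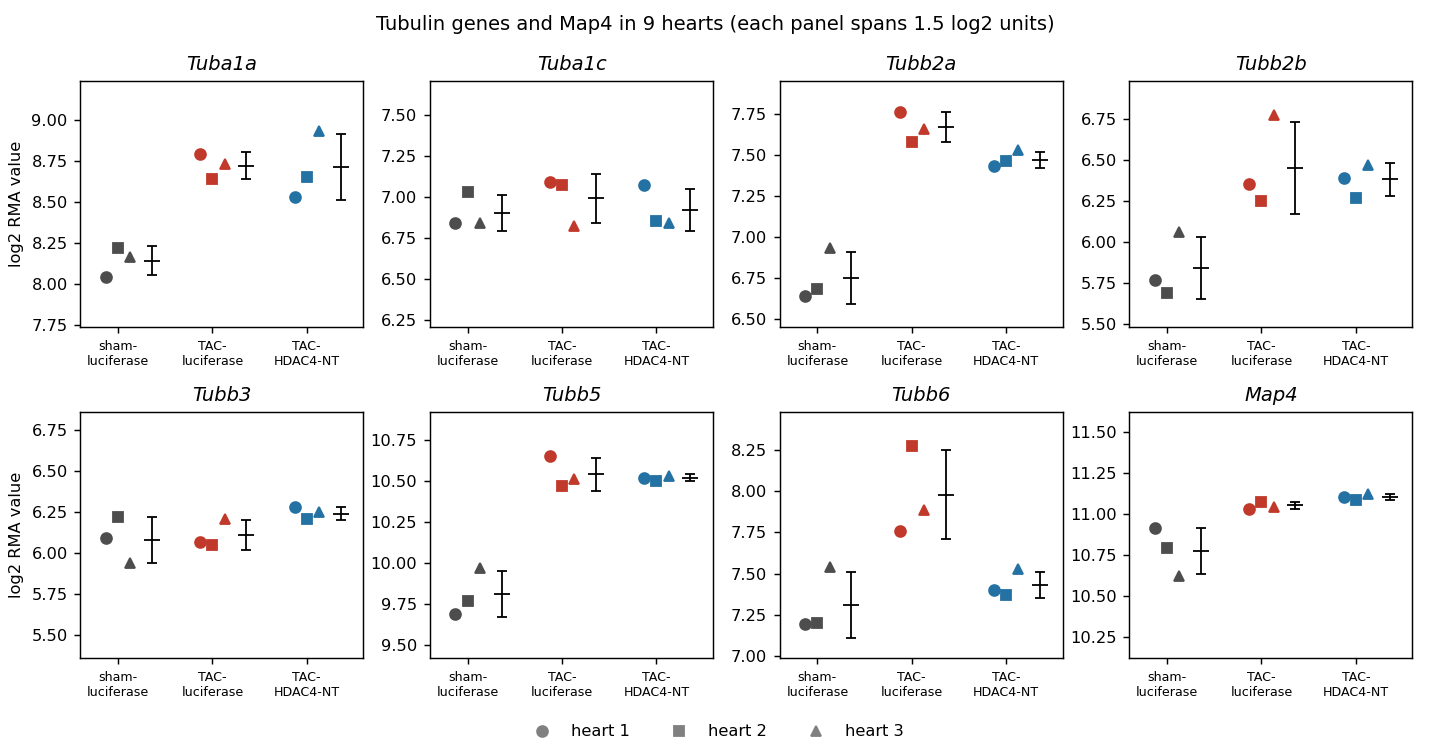
Log2 RMA values of the 8 measured genes in each heart (points, shaped by replicate number) with the group mean and SD (n = 3); each panel spans 1.5 log2 units. Tubb6 in TAC-HDAC4-NT (7.37 to 7.53) lies within the sham range (7.19 to 7.54), while Tuba1a, Tubb2a, Tubb2b, Tubb5 and Map4 lie above sham in all 6 TAC hearts.

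In TAC-HDAC4-NT against sham, 5 of the 8 genes were higher (Tuba1a, Tubb2a, Tubb2b, Tubb5 and Map4) and none was lower by limma, where 22.8% of all genes tested were called, 10.5% higher and 12.3% lower. For these 5 genes every TAC-HDAC4-NT heart lay above every sham heart, a pattern found in 18.3% of all genes tested, and in 39.7% the groups were apart in either direction. The median log2 fold change was 0.43 over the 8 genes and -0.012 over all genes tested. Both comparisons use the same sham hearts, so the values are set side by side and their likeness is not a second measurement.

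The TAC groups were then compared with each other, for differences that go with the HDAC4 fragment under load. None of the 8 genes passed (limma), 2 had an unadjusted p under 0.05 (Tubb2a and Tubb6), and 0.254% of all genes tested were called, 0.143% higher and 0.111% lower. The median difference was -0.050 log2 units over the 8 genes and 0.0042 over all genes tested. For 3 of the 8 genes the TAC groups were apart in every heart, Tubb2a and Tubb6 lower and Map4 higher with HDAC4-NT, and the same held for 20.4% of all genes tested.

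Tubb6 differed most, at -0.54 log2 units with HDAC4-NT (SE 0.14, 95% confidence interval -0.85 to -0.24, adjusted p 0.11 by limma). All 3 HDAC4-NT hearts were lower than all 3 TAC-luciferase hearts. Without TAC-luciferase heart 1, the lowest of its group, the difference was -0.65 with an adjusted p of 0.0272 (limma), and with array weights it was -0.63 with an adjusted p of 0.0188 (limma). Without TAC-luciferase heart 2, the highest of its group, it was -0.39 with an adjusted p of 0.248 (limma). The adjusted p reached 0.352 without TAC-HDAC4-NT heart 1, and of all the settings tried only array weights and the fit without TAC-luciferase heart 1 brought it under 0.05. Without that heart 697 genes passed in this comparison against 32 with all hearts, and with array weights 827 did. Tubb2a stood at -0.20 (95% confidence interval -0.38 to -0.0082, adjusted p 0.325 by limma) and Map4 at 0.055 (-0.10 to 0.21).

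The other genes gave intervals that include 0. Tuba1a stood at -0.014 (-0.23 to 0.21), Tuba1c at -0.075 (-0.29 to 0.14) and Tubb2b at -0.077 (-0.39 to 0.24). Tubb5 stood at -0.025 (-0.20 to 0.15) and Tubb3 at 0.14 (-0.032 to 0.30). A difference of the size of the Tubb5 rise with TAC lies outside each of these intervals.

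**Figure D2:**
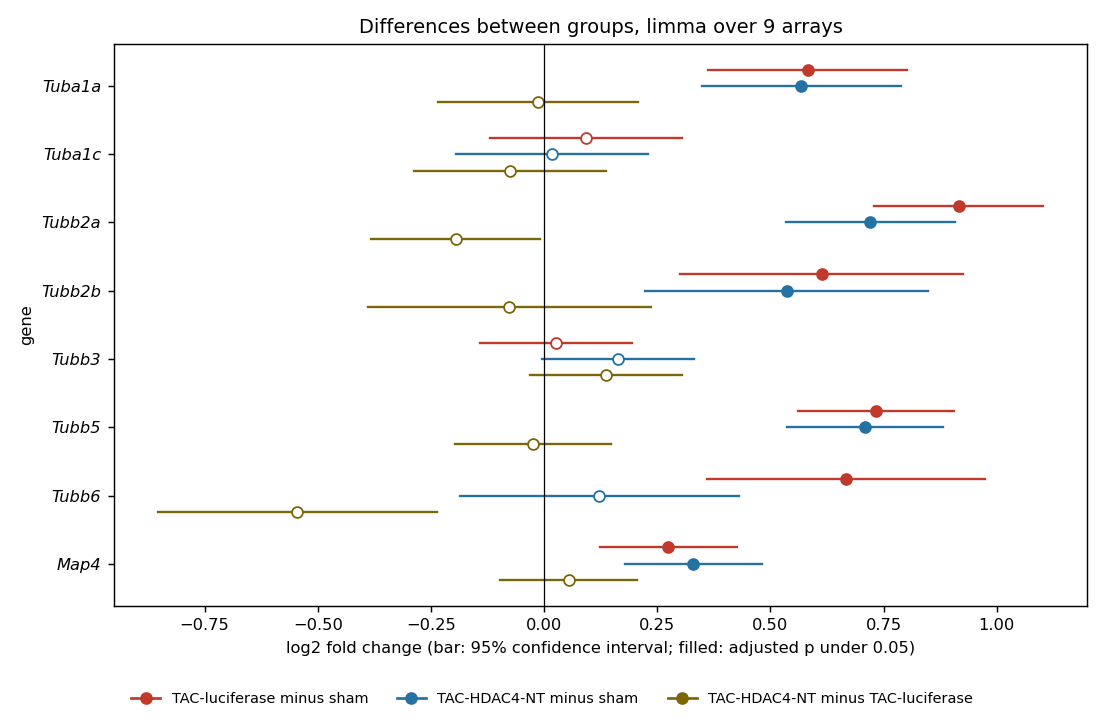
Log2 fold change of each gene in the 3 comparisons (points) with its 95% confidence interval (bars); filled points passed an adjusted p under 0.05 in limma. Tuba1c and Tubb3 are unfilled in every comparison, and Tubb6 is filled at 0.67 for TAC-luciferase minus sham and unfilled at 0.12 for TAC-HDAC4-NT minus sham.

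Promoter windows are shown for the genes of the largest rises that the sequence table holds, with Tuba1c beside them as an alpha-tubulin that did not pass. Each is the 250 bases before the gene start in RefSeq, build GRCm38.p6, written 5′ to 3′ on the gene's strand. Windows were found for 8 of the 10 genes, and none was found for Tubb2b or Tubb6. Capitals mark every match, on either strand, to a CCAAT box (CCAAT), TATA box (TATAAA), GC box (GGGCGG), cAMP response element (TGACGTCA), E-box (CACGTG), AP-1 site (TGACTCA) or MCAT element (CATTCC), and to the MEF2 site and CArG box consensus motifs.
Tubb2a (chr13:34078009-34078258, minus strand): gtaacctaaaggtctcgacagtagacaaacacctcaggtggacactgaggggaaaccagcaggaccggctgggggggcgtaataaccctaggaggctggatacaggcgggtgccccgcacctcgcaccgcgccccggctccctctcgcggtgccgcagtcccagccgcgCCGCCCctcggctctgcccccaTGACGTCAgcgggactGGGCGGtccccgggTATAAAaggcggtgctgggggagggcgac
Tubb5 (chr17:35838302-35838551, minus strand): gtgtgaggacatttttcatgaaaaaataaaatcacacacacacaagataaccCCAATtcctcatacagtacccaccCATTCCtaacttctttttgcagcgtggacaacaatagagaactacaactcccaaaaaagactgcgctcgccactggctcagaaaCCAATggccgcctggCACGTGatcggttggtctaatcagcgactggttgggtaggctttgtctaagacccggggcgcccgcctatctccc
Tuba1a (chr15:98953502-98953751, minus strand): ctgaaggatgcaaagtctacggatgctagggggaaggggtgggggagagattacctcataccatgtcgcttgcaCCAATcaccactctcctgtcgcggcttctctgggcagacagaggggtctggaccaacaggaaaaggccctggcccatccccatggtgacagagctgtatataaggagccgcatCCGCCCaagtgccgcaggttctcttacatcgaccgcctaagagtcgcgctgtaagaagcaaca
Tuba1c (chr15:99029641-99029890, plus strand): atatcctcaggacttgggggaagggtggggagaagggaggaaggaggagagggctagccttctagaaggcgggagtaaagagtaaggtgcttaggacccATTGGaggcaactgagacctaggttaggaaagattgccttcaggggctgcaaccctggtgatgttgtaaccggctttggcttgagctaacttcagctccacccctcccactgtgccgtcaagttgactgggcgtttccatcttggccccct

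None of these motifs was in all 3 of the Tubb2a, Tubb5 and Tuba1a windows, though Tubb2a and Tuba1a both held a GC box and Tubb5 and Tuba1a both held a CCAAT box. Tubb2a had a TATA box at -29 to -24, a cAMP response element at -59 to -52 and GC boxes at -81 to -76 and -43 to -38. Tubb5 had CCAAT boxes at -198 to -194 and -90 to -86, an MCAT element at -174 to -169 and an E-box at -75 to -70. Tuba1a had a CCAAT box at -176 to -172 and a GC box at -63 to -58, and Tuba1c a single CCAAT box at -151 to -147. Of 32851 windows of this length, 33.8% held a CCAAT box, 32.7% a GC box, 12.6% an MCAT element, 12.4% a TATA box, 6.02% an E-box and 1.55% a cAMP response element. No MEF2 site, CArG box or AP-1 site was found in the windows of the measured genes that have a window. Tubb2b and Tubb6 have none here, so their promoters were not searched. These motifs are held by 0.508%, 1.47% and 4.46% of all windows. MEF2 factors are among the partners through which HDAC4 represses genes. A match is only a stretch of letters, and the lack of one says nothing of a factor's binding elsewhere.

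The remaining tubulin genes went the other way or did not pass. Of the 11 other tubulins listed, 9 were tested, and 3 were lower and none higher in each comparison with sham. Over all genes tested, 14.9% and 12.3% were called lower. Under cyclic loess scaling the counts were 2 lower and none higher in TAC-luciferase, and 3 lower and 1 higher in TAC-HDAC4-NT. Tuba4a, an alpha-tubulin of muscle and brain whose protein is made without the terminal tyrosine, was at 11.76, 11.69 and 11.85 in sham, 11.25, 11.26 and 11.22 in TAC-luciferase and 11.32, 11.34 and 11.31 in TAC-HDAC4-NT. Both TAC groups lay below sham with tight replicates. Tuba4a fell 1.43-fold in TAC-luciferase (log2 fold change -0.52, SE 0.05, adjusted p 0.000145 by limma) and 1.36-fold in TAC-HDAC4-NT (-0.44, SE 0.05, adjusted p 0.000364 by limma). Tuba1a and Tuba4a thus changed in opposite directions in the same hearts.

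The other 2 that fell were small changes. Tubd1, delta-tubulin, was at -0.20 in both comparisons, and its call in TAC-HDAC4-NT was lost without TAC-HDAC4-NT heart 1 (adjusted p 0.0616 by limma). Tubg1, the gamma-tubulin that seeds new microtubules, was at -0.18 in TAC-luciferase and -0.23 in TAC-HDAC4-NT. The first of these calls was lost when sham heart 2 or 3 or TAC-luciferase heart 1 or 2 was left out (highest adjusted p 0.0886 by limma). Cyclic loess scaling, a trended robust prior, a fit of only the 2 groups and the replicate block also ended it. Tuba8, an alpha-tubulin of striated muscle named here after its values were seen, lay below sham in all 6 TAC hearts, at -0.28 in TAC-luciferase (adjusted p 0.0705 by limma) and -0.32 in TAC-HDAC4-NT (adjusted p 0.0506 by limma). It was called in both comparisons with the replicate block and with the random block by sample code. In TAC-HDAC4-NT it was also called with the 60th percentile filter, a trended robust prior, array weights and a fit of only the 2 groups.

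Kinesin-1 and dynein are among the motors that walk on microtubules. Of 12 of their genes tested, 5 were higher in TAC-luciferase and 6 in TAC-HDAC4-NT, none was lower, and the rest did not pass. The medians were 0.19 and 0.21, and 11.2% and 10.5% of all genes tested were called higher. Kif5b, the kinesin-1 heavy chain of most tissues, had log2 values of 9.49, 9.53 and 9.44 in sham, 10.09, 10.17 and 10.16 in TAC-luciferase and 10.16, 10.09 and 10.18 in TAC-HDAC4-NT. It rose 1.57-fold (log2 fold change 0.65, SE 0.05, adjusted p 4.04e-05 by limma) and 1.58-fold (0.66, SE 0.05, adjusted p 4.13e-05 by limma). Dync1li1, a light intermediate chain of dynein, rose by 0.52 and 0.44 log2 units, and Dync1h1, its heavy chain, by 0.38 and 0.40. Dynll1, a dynein light chain, was at 0.31 and 0.36, and 6 of the 9 arrays, when left out singly, ended its call in TAC-luciferase and 4 did in TAC-HDAC4-NT (highest adjusted p 0.121 and 0.0838 by limma). No filter, array weights and a fit of only the 2 groups also ended the first of these.

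Proteins that bind the polymer or its growing end were mixed. Of 25 tested, 6 were higher and 4 lower in TAC-luciferase, and 5 higher and 3 lower in TAC-HDAC4-NT, with medians of 0.070 and 0.074. Over all genes tested, 26.1% and 22.8% were called in either direction. Map1b, a structural microtubule-associated protein of developing neurons, was at 6.60, 6.59 and 6.72 in sham, 7.50, 7.85 and 7.69 in TAC-luciferase and 7.52, 7.23 and 7.53 in TAC-HDAC4-NT. Every TAC heart was above sham. Map1b rose 2.06-fold in TAC-luciferase (log2 fold change 1.04, SE 0.10, adjusted p 0.000166 by limma) and 1.74-fold in TAC-HDAC4-NT (0.80, adjusted p 0.000748 by limma). Ckap4, which links endoplasmic reticulum to microtubules, rose by 0.49 and 0.48. Map6, which protects microtubules from cold, rose by 0.43 in TAC-HDAC4-NT and stood at 0.19 in TAC-luciferase (adjusted p 0.0686 by limma), and the difference between the TAC groups did not pass. Tppp, which promotes tubulin polymerisation, fell by 0.39 in TAC-luciferase, and its fall of 0.27 in TAC-HDAC4-NT was no longer called when 1 of 5 arrays was dropped (highest adjusted p 0.0957 by limma). The TAC-luciferase values of Tppp, 5.64, 5.56 and 5.77, lie near the filter value of 5.66.

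Enzymes that modify tubulin were also mixed. Of 14 tested, 2 were higher and 3 lower in TAC-luciferase, and 2 higher and 1 lower in TAC-HDAC4-NT. The share called over all genes tested was 26.1% and 22.8%. Agtpbp1, which trims glutamates from tubulin tails, averaged 9.93 ± 0.10 in sham, 9.22 ± 0.07 in TAC-luciferase and 9.34 ± 0.08 in TAC-HDAC4-NT (SD, n = 3). All TAC hearts were below sham, with a 1.63-fold fall (log2 fold change -0.70, SE 0.07, adjusted p 0.000145 by limma) and a 1.51-fold fall (-0.59, adjusted p 0.000381 by limma). Among enzymes that add glutamate, Ttll7 rose by 0.31 in TAC-luciferase. Its sham values of 5.65, 5.66 and 5.72 lie near the filter value of 5.66, where RMA compresses differences. In TAC-HDAC4-NT Ttll7 was at 0.20, and dropping 1 of 5 arrays ended that call (highest adjusted p 0.0717 by limma). Ttll1 fell by 0.33 in TAC-luciferase and stood at -0.23 in TAC-HDAC4-NT (adjusted p 0.0656 by limma). Ttll12, a member of the same family, rose by 0.28 in TAC-HDAC4-NT and stood at 0.08 in TAC-luciferase (adjusted p 0.347 by limma). Neither differed between the TAC groups past the threshold (adjusted p 0.616 and 0.126 by limma). Atat1, which acetylates alpha-tubulin, rose by 0.23 in TAC-luciferase and stood at 0.17 in TAC-HDAC4-NT (adjusted p 0.0589 by limma), where cyclic loess scaling, array weights and both blocks called it.

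The tyrosination enzymes did not pass in either comparison with sham. Ttl, which puts tyrosine back on alpha-tubulin, stood at 0.081 and 0.091, and Svbp, the partner of the detyrosinating vasohibins, at 0.12 and 0.068. Hdac6, which deacetylates tubulin, stood at 0.14 and 0.024. In TAC-luciferase Svbp and Hdac6 had adjusted p-values of 0.0884 and 0.0855 (limma). Svbp was called there with no filter, and Hdac6 with cyclic loess scaling or without TAC-luciferase heart 3. Vash2 did not pass the filter on low values, and Vash1 and Stmn1 were not analysed here.

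The tubulin folding genes had medians near those of all genes tested, 0.036 and -0.055. Of 21 tested, 1 was higher and 2 lower in TAC-luciferase, and 2 higher and 3 lower in TAC-HDAC4-NT. Among all genes tested, 26.1% and 22.8% were called in either direction. The prefoldin subunit gene Pfdn6 fell by 0.53 and 0.51. Pfdn5 was at -0.27 and -0.30, Pfdn1 at 0.18 and 0.22, and the chaperonin subunit gene Cct7 at -0.16 and -0.23. Pfdn5 in both comparisons, Pfdn1 in TAC-luciferase and Cct7 in TAC-HDAC4-NT each lost the call when some single array was left out (highest adjusted p 0.0706 by limma), as did Pfdn1 in TAC-luciferase with a trended robust prior or only the 2 groups.

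Nucleation genes gave 1 higher and 3 lower of 11 in TAC-luciferase, and 1 higher and 2 lower in TAC-HDAC4-NT. The shares called over all genes tested were 26.1% and 22.8%. Mzt1 was at -0.23 and -0.27, Nedd1 at -0.17 and -0.17, Pcnt at -0.18 and -0.12, and Tubgcp4 at 0.25 and 0.29. Every call of these 4 genes ended when some single array was dropped (highest adjusted p 0.142 by limma), and several of them under other settings too. Under cyclic loess scaling 1 nucleation gene was lower in each comparison. Of 7 severing and destabilising genes tested, Fign, a severing enzyme, was lower in both comparisons, at -0.37 and -0.24. The second of these was lost without sham heart 1 or TAC-HDAC4-NT heart 2 or 3 (highest adjusted p 0.0846 by limma). Fign stood at 5.91, 5.69 and 5.7 in sham, and every TAC heart lay below the filter value. It was at 5.37, 5.44 and 5.39 in TAC-luciferase and 5.58, 5.48 and 5.51 in TAC-HDAC4-NT. Fign was thus tested only through the sham hearts, and RMA compresses differences at such low values. None of the 7 kinases and phosphatase subunits listed for Map4 passed in limma, and 1 had an unadjusted p under 0.05 in each comparison, Stk11 in TAC-luciferase and Mark4 in TAC-HDAC4-NT. Stk11 stood at -0.29 and -0.11 and Mark4, which phosphorylates Map4, at -0.049 and -0.14.

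Between the TAC groups none of the 106 genes tested from these 8 lists passed in limma, and 7 had an unadjusted p under 0.05.

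**Figure D3:**
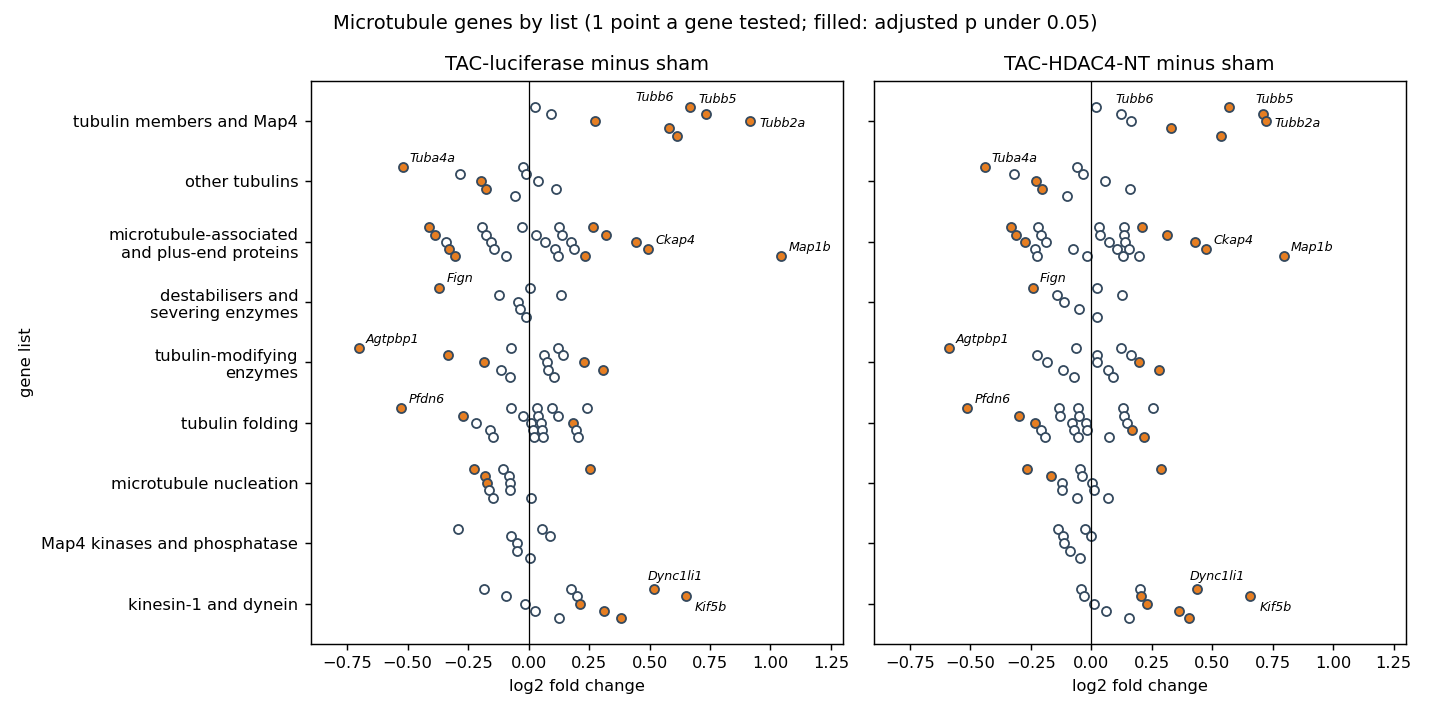
Log2 fold change of every microtubule gene tested, by list, in TAC-luciferase minus sham (left) and TAC-HDAC4-NT minus sham (right); filled points passed an adjusted p under 0.05 in limma. Vertical offsets within a list have no meaning. Tubb6 is filled at 0.67 on the left and unfilled at 0.12 on the right, while Tuba4a (-0.52 and -0.44) and Agtpbp1 (-0.70 and -0.59) lie at the low end on both sides.

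Whole hearts hold many cell types, and in bulk RNA fewer cells of a type and less RNA per cell cannot be told apart. Cardiomyocyte markers were present, and their summed linear signal ran from 56473 to 60274 in sham, 55858 to 58525 in TAC-luciferase and 57171 to 57986 in TAC-HDAC4-NT. Of 8 tested, 1 was called higher and 1 lower in TAC-luciferase, and 1 higher and 0 lower in TAC-HDAC4-NT. Over all genes tested, 26.1% and 22.8% were called in either direction. Mybpc3 lay above sham in all 6 TAC hearts and Tnni3 below, so the sum hides opposite changes. The fibroblast marker sum moved with the tubulins, though not every marker did. Dcn, Lum, Col1a1, Col3a1 and Meox1 lay above sham in all 6 TAC hearts. Pdgfra, Tcf21 and Gsn overlapped sham in both TAC groups, and Dpt did in TAC-luciferase. Fibroblast markers summed to 6922 to 7510 in sham, 9067 to 10261 in TAC-luciferase and 9883 to 10694 in TAC-HDAC4-NT, and 5 of 9 were called higher in each TAC group. Macrophage markers summed to 1364 to 1619, 2011 to 2307 and 1963 to 2051, with 4 and 6 of 9 higher. Cycling-cell markers summed to 449 to 465, 563 to 702 and 507 to 621, with 6 and 5 of 7 tested higher, Mki67 at 0.56 and 0.50 among them. Top2a and Cdk1 lay below the filter value of 5.66 in every sham heart and were tested only through TAC hearts. Mki67 lay near that value in sham, at 5.65, 5.61 and 5.7. Birc5 and Bub1 did not pass the filter, so the filter bears on these counts. The share of all genes tested called higher was 11.2% and 10.5%. The part of fibroblasts, macrophages and cycling cells in the tubulin changes was not tested.

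Markers of neurons and Schwann cells, where Tubb3 is abundant, summed to 398 to 421 in sham, 404 to 417 in TAC-luciferase and 402 to 409 in TAC-HDAC4-NT, with 4 of 8 past the filter and none called. The defining neuronal genes Th, Dbh, Snap25 and Elavl4 did not pass the filter. Of 5 atrial markers Nppa, also a load-induced ventricular gene, was higher in each TAC group, and Myl4, Myl7, Sln and Mybphl were not called. The hearts of a group differed widely in some of these. Myl7 was at 6.26, 7.74 and 6.39 in sham, 5.48, 5.73 and 8.56 in TAC-luciferase and 5.45, 6.56 and 6.91 in TAC-HDAC4-NT. Whether the hearts held unlike amounts of atrial tissue was not tested. Smooth muscle and pericyte markers summed to 5548 to 6126 in sham, 5120 to 5870 in TAC-luciferase and 6092 to 6566 in TAC-HDAC4-NT, so the TAC groups did not overlap. They had none of 7 called in TAC-luciferase (2 at an unadjusted p under 0.05, limma), and 2 higher and 1 lower in TAC-HDAC4-NT. Over all genes tested, 26.1% and 22.8% were called in either direction. Endothelial markers had 1 higher and 2 lower of 8 in TAC-luciferase and 1 higher in TAC-HDAC4-NT. Their sum was 5384 to 5820 in sham, 5269 to 5711 in TAC-luciferase and 6332 to 6528 in TAC-HDAC4-NT, so the TAC groups were apart here as well. No endothelial marker passed between them in limma, and 4 of 8 had an unadjusted p under 0.05. Cycling-cell sums overlapped between the TAC groups. Of 7 cycling-cell markers tested between them, 1 had a difference above 0, 1 had an unadjusted p under 0.05 (limma) and none was called. The part of cycling, macrophage, endothelial, smooth muscle and pericyte cells in the Tubb6 difference between the TAC groups was not tested.

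**Figure D4:**
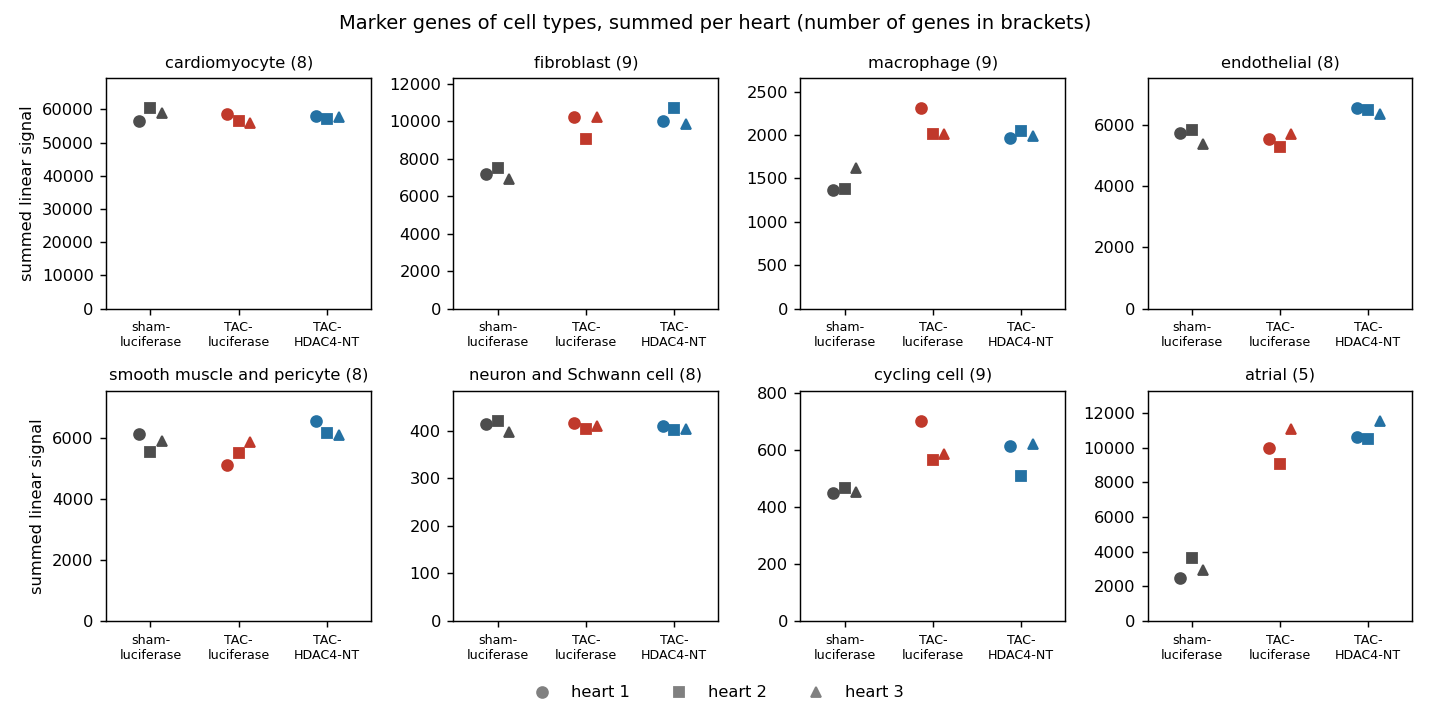
Summed linear signal (2 to the power of the log2 value, added over genes) of marker genes for 8 cell types in each heart; the number of genes stands in brackets and every axis starts at 0. Fibroblast, macrophage, cycling-cell and atrial sums are higher in all 6 TAC hearts than in sham, and cardiomyocyte and neuron sums are not. Nppa is the only atrial marker called.

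The genes whose log2 values ran most like the mean standardised value of the 7 tubulins over the 9 hearts were Mtpn (Pearson r 0.982), Qsox1 (0.980), Mfap4 (0.980), Chpf (0.980) and Ankrd23 (0.980). Mtpn encodes myotrophin, Qsox1 a sulfhydryl oxidase, Mfap4 a microfibril-associated protein, Chpf a chondroitin polymerising factor and Ankrd23 a muscle ankyrin repeat protein. They share the step between sham and TAC with the tubulins, and over deviations from the group means the same correlations were 0.716, 0.809, 0.384, 0.135 and 0.063. These are descriptions of 9 arrays that share the same quantile normalization.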

How the data were processed

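Per the labels' protocols, heart RNA was isolated with Trizol and biotinylated cRNA was put on Affymetrix arrays. The deposited values are log2 RMA expression values, per the submitters' processing notes. Not given in the sources used here are the RMA version, the probe set definitions and any build. All 9 arrays had identical sorted values, as quantile normalization leaves them. RMA compresses low values, so changes of weak genes are understated. Expression levels of different probe sets were not ranked against each other. Fold changes were ranked across genes, and the marker sums add linear signals over probe sets, so bright probe sets weigh most in them. Tubulin genes are closely related in sequence, and how far a probe set also detects a paralog was not tested.

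Of 21225 probe sets, 20239 had 1 symbol in the platform annotation, and 986 are unnamed here. Genes with at least 3 arrays above the 40th percentile were tested. All 9 arrays entered a single linear model of the 3 groups in limma 3.58.1 (R 4.3.3; lmFit, contrasts.fit, eBayes; 6 residual and 3.23 prior degrees of freedom), with Benjamini-Hochberg adjustment over 12597 genes and calls at an adjusted p under 0.05. The scripts were tested on simulated data. Precision is limited by the number of arrays (median SE of a log2 fold change 0.07).

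The alternatives were cyclic loess scaling, no filter, a 60th percentile filter, array weights, a trended robust prior, a fit of only the 2 groups compared, a replicate block, a random block by the sample code's first number, thresholds of 0.01 and 0.10, and each array left out in turn.

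All 10 genes were to be named, with up to 4 called genes of smallest p from each of 8 microtubule lists (up to 2 of smallest p where none was called), Vash1, Vash2, Svbp, Ttl, Atat1, Hdac6, Stmn1, Mark4 and Tubg1, and the 5 genes closest in pattern. The members and lists were chosen with earlier results of these data known. Promoter windows and names are from RefSeq (GRCm38.p6). The 10 motifs searched also held a heat shock element (in 0.466% of all windows and in none of these genes' windows). Figures were drawn with matplotlib 3.10.9.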

Additional observations from a re-analysis of the deposited data

How the results depend on the processing

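The count of members called stayed at 6 in TAC-luciferase against sham under every alternative except the threshold of 0.01, where it was 4, and leaving out each array in turn gave 6 to 6. In TAC-HDAC4-NT against sham it was 5 or 4 in all of them, and 4 to 5 with each array left out. Between the TAC groups it was 0, 1 with array weights and 0 to 1 with each array left out, the 1 being Tubb6. Over all genes this last comparison moved far more, from 0 genes called with only the 6 arrays of these groups (1868 at an unadjusted p under 0.05) to 827 with array weights. Cyclic loess scaling left the members' calls at 6, 5 and 0.

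Signs turned only for differences that had not passed. With arrays left out, Tubb3 in TAC-luciferase against sham ran from -0.043 to 0.094 and Tuba1c in TAC-HDAC4-NT against sham from -0.058 to 0.081. Between the TAC groups Tuba1a ran from -0.13 to 0.073, Tubb2b from -0.18 to 0.079 and Tubb5 from -0.062 to 0.030, and Tubb5 was 0.0054 with array weights. The cause was not tested. Of the counts called on the 8 microtubule lists, 792 under an alternative stayed within 1.5 times the main count and 120 did not. The 792 include counts of 0 that stayed at 0, and between the TAC groups every main count was 0. They therefore say little of how steady the counts above 0 are.

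Replicate numbers in the labels do not name a shared litter or day, and deviations of same-numbered arrays correlated between -0.12 and 0.20, so the numbers were not taken as pairs. With the replicate block the members' calls were 6, 5 and 0, and over all genes 3062, 2667 and 106 were called against 3283, 2872 and 32.

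The first number of the sample code, whose meaning the labels do not give, is shared by no 2 groups. All sham hearts have 1 number, and TAC-luciferase heart 1 has another than hearts 2 and 3 of its group. Differences between groups thus cannot be told apart from differences between codes. With this number as a random block the members' calls were 6, 5 and 0. Over all genes 3988, 3468 and 177 were called, against 3283, 2872 and 32 in the main fit. This block cannot separate the code from the group, so an effect of the code was not tested.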
